A study of Mus musculus with 6 samples.

Results

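The genes of DNA replication were followed in the RNA of mouse microglia that had been cultured with neutrophils. The set holds 45 genes, chosen by name for what their proteins do in licensing origins, unwinding DNA, copying it and supplying nucleotides. All 45 were found among the 55335 gene identifiers of the table. Each of them reached a mean of at least 1 FPKM (fragments per kilobase of a transcript and per 1000000 mapped fragments), the level required for testing. Their mean levels over the 6 libraries ran from 2.6 to 121 FPKM with a median of 16.7 FPKM. Among the 11395 genes tested, these levels lay between the 17.3 and the 97.1 percentile, with a median at the 73.5 percentile.

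The microglia were primary cells from the whole brain of neonatal mice (C57BL/6), detached from flasks of mixed glia by shaking at day 14 of culture, and their own genotype was labelled WT in both arms. The neutrophils came by magnetic sorting from the spinal cord lesion 3 days after spinal cord injury (SCI), from adult donors that were Cd177 WT or Cd177-/-, a line that lacks the neutrophil surface protein CD177 in the whole body. After 24 h of co-culture, microglia were recovered by flow sorting of Ly6G- cells. There were 3 libraries with WT neutrophils and 3 with Cd177 KO neutrophils, and no library of microglia without neutrophils is used here, so every difference below is KO neutrophils against WT neutrophils. No label says that libraries of the same arm are separate cultures, so the p-values measure the spread between these libraries, which may be technical.

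Replication begins when the origin recognition complex, CDC6 and CDT1 load the ring of MCM proteins onto DNA in the G1 phase of the cell cycle. In S phase, CDC45 and the GINS complex turn that ring into an active helicase, and polymerases held by the sliding clamp PCNA copy the unwound strands. Many of these genes are transcribed at the border of G1 and S by E2F factors, which the retinoblastoma family of proteins holds in check. Microglia are long-lived macrophages of the brain that divide slowly in the healthy adult, and that divide readily in culture or after injury.

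In each library 11371 to 11406 genes reached 1 FPKM. The table gives no depth, and a rough estimate from the steps between low values was 15.7 to 19.4 times 1000000 fragments. FPKM summed to 314084.9 to 315632.4 with WT and to 323588.4 to 326868.0 with KO neutrophils, and mitochondrial genes held 11.1% to 11.32% and 14.31% to 14.62% of these sums. Of 15 markers of microglia and macrophages, 10 were tested, of which 6 were higher and 2 lower, where 24.5% and 18.8% of all genes were. Cd68 rose from 371.7 ± 7.48 to 491.3 ± 12.5 FPKM, while Adgre1, the gene of the macrophage antigen F4/80, fell from 101.3 ± 2.67 to 39.33 ± 1.56 FPKM and Cx3cr1 from 2.74 ± 0.296 to 1.14 ± 0.251 FPKM (SD, n = 3 each). The list summed to 830 to 866 FPKM with WT and 974 to 1020 FPKM with KO neutrophils. Fcrls and C1qa, which mark microglia strongly in the brain, were listed at 0 in all 6 libraries, and P2ry12, Tmem119 and Aif1 stayed under 1 FPKM, so the labelled cell type rests here on markers shared with other macrophages. All 10 neutrophil markers had means under 1 FPKM, and 4 of them, Ly6g and S100a9 included, were listed at 0 throughout. Their sum was 1.82 to 2.02 FPKM with WT and 0.769 to 1.19 FPKM with KO neutrophils. Cd177 itself read 0.477, 0.113 and 0.151 FPKM in the WT libraries against 0.109, 0.0217 and 0.0845 FPKM in the KO libraries, too little to check the genotype of cells that had been sorted away. Markers of astrocytes, the oligodendrocyte lineage and neutrophil precursors summed to at most 0.265, 0.512 and 0.239 FPKM in any library. Those of fibroblasts and endothelium summed to 0.23 to 0.258 FPKM with WT and to 0.0493 to 0.0588 FPKM with KO neutrophils, without an overlap. The part of the neutrophil residue and of the markers that differed between arms in the results below was not tested.

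Most replication genes that passed the test were higher in microglia cultured with KO neutrophils. Of the 45 genes, 26 (57.8%) were higher at a limma adjusted p under 0.05, against 24.5% of all genes tested. Only 3 (6.67%), Cdc45, Cdt1 and Pole, were lower, against 18.8% of all genes, and the other 16 did not pass. In either direction that made 64.4% of the set, against 43.3% of all genes. The median log2 change of the set was 0.239, on the log2(FPKM + 1) scale that is used for all changes below, and that of all genes tested was 0.024. The changes were small. They ran from -0.302 to 0.656, and only 5 genes, Gmnn, Dut, Pcna, Tk1 and Pole2, rose by over 1.5-fold in mean FPKM. No gene of the set passed the threshold of the study, a change of over 2-fold at an unadjusted p under 0.05, which 2.57% of all genes passed. In 30 of the 45 genes (66.7%) the libraries of the arms did not overlap, as in 55.8% of all genes. For these 30 a two-sided exact permutation test gave p = 0.1, the smallest that 3 libraries against 3 can give. RNA of a bulk sample cannot tell more cells in S phase from more RNA of these genes per cell.

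**Figure D1:**
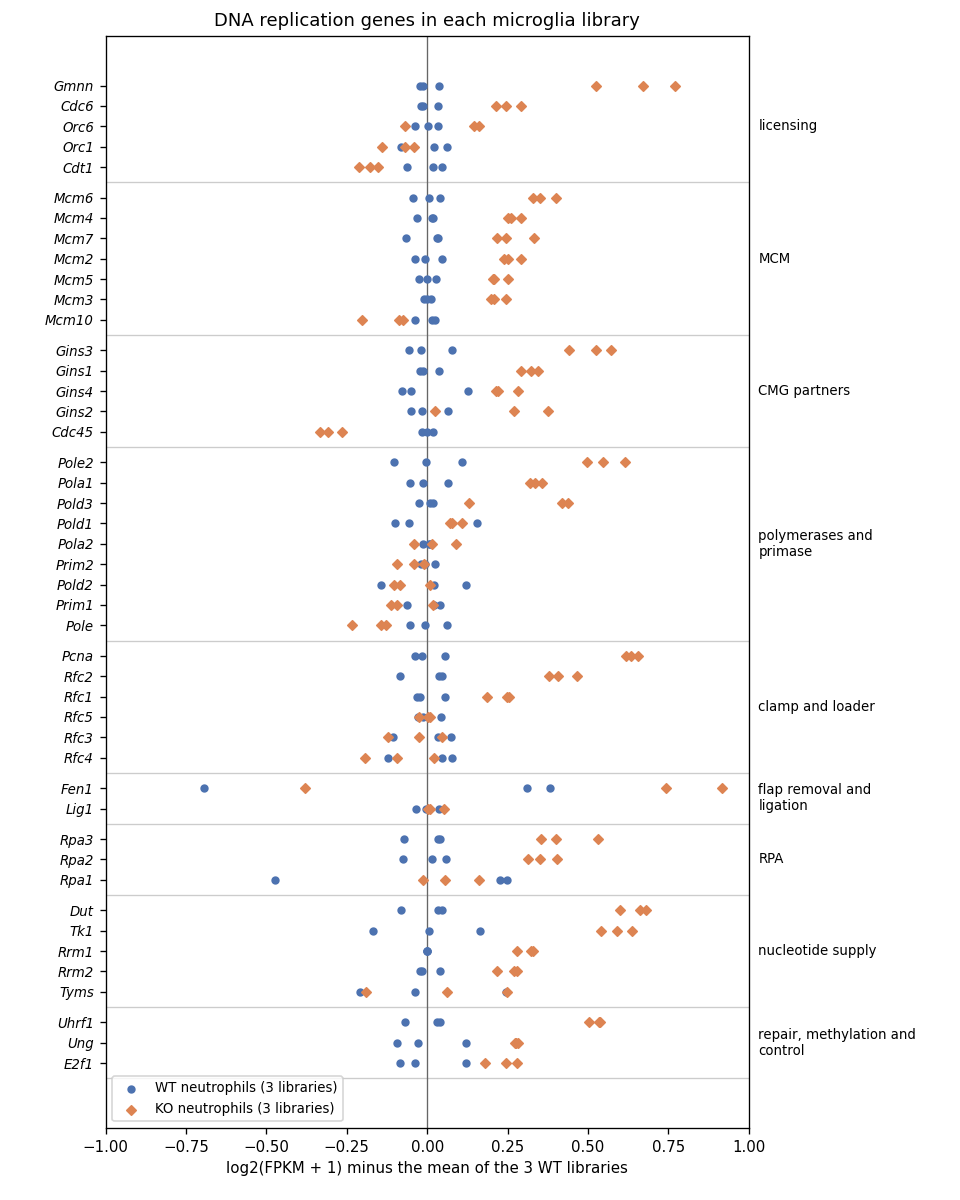
Each of the 45 replication genes in each library, as log2(FPKM + 1) minus the mean of the 3 WT libraries, in groups by role and sorted by change within a group. Blue circles are libraries with WT neutrophils and orange diamonds those with KO neutrophils. In 30 genes the colours do not overlap, Cdc45 shows the largest fall, and Fen1 and Rpa1 show the widest scatter within an arm.

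Summed over the set, replication transcripts made up 852, 879 and 853 FPKM with WT neutrophils and 1039, 1039 and 1029 FPKM with KO neutrophils. As a share of all FPKM in the library this was 0.271% to 0.278% and 0.315% to 0.321%, so the shares of the arms did not overlap either. When every library was rescaled to the same sum (the TPM scale), 25 genes were called higher and 4 lower, where 19.1% and 23.3% of all genes were. Rescaling without mitochondrial genes left 26 higher and 3 lower, and 57.3% of the calls over all genes were then higher. The exceptions on the TPM scale were E2f1, whose limma adjusted p became 0.0525, and Mcm10, which joined the lower genes at 0.0407. On that scale 45.1% of the calls over all genes were higher, against 56.6% on the deposited scale. Within an arm the values were tight, with a median coefficient of variation of 3.81%, and only Fen1 and Rpa1 exceeded 20% in an arm. By gene annotation, the exons of 14 members overlap those of another gene, and without strand in the counts such reads cannot be told apart. These members are Orc1, Orc6, Mcm7, Cdc45, Gins2, Pole, Pole2, Rfc2, Rfc4, Rfc5, Fen1, Lig1, Rpa1 and Tk1. Among the 31 members without an overlap, 22 (71.0%) were higher and 1 (3.23%) was lower, against 24.5% and 18.8% of all genes tested. The median log2 change of these 31 was 0.256, beside 0.024 for all genes tested.

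**Figure D2:**
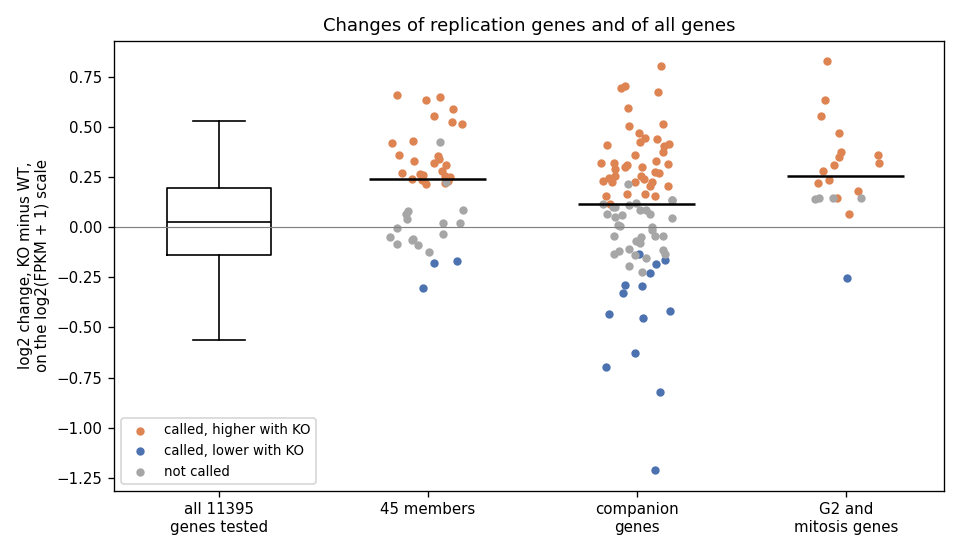
Log2 change, KO minus WT neutrophils, on the log2(FPKM + 1) scale, for the 45 replication genes, for companion genes of replication and its control, and for genes of G2 and mitosis, each point 1 gene and each bar a median. The box shows all 11395 genes tested, with the quartiles, the median of 0.024 and whiskers at the 5th and 95th percentiles. The medians of the 3 lists are 0.239, 0.114 and 0.254.

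Promoter windows were read for the members, since many of them move together and E2F sites are a known feature of S-phase genes. RefSeq windows (mouse GRCm38.p6, 250 bases before to 50 bases after a start) were found for 37 of the 45 genes. They were searched on both strands for the 4 E2F spellings TTTCCCGC, TTTCGCGC, TTTGCCGC and TTTGGCGC. At least 1 of these was found in 15 of the 37 genes (40.5%). Among all 27018 genes with a RefSeq window, which include genes not tested here, 704 (2.61%) held one. A selection of windows is shown, 5' to 3', with the E2F letters in capitals where a window holds them. Mcm6, Gins3, Pole2 and Uhrf1 rose and hold the letters, and Pcna rose by more and does not hold them. Dut and Tk1, whose windows were read but are not shown, rose by 0.65 and 0.59 and do not hold them either. Cdt1 and Cdc45 fell, the former with the letters and the latter without. The Mcm6 window (chr1:128359656-128359955, minus strand) holds 3, of which the pair that begin 110 and 106 bases upstream of the start overlap each other, and the other begins 47 bases upstream. In Gins3 (chr8:95633309-95633608, plus strand) the letters begin 41 bases upstream, and in Uhrf1 (chr17:56304063-56304362, plus strand, the downstream of its 2 starts) 185 bases upstream. In Pole2 (chr12:69228141-69228440, minus strand) and Cdt1 (chr8:122567765-122568064, plus strand) they begin 10 and 32 bases downstream of the start. Pcna (chr2:132253131-132253430, minus strand) and Cdc45 (chr16:18811923-18812222, minus strand) hold none of the 4 spellings in these windows.
Mcm6: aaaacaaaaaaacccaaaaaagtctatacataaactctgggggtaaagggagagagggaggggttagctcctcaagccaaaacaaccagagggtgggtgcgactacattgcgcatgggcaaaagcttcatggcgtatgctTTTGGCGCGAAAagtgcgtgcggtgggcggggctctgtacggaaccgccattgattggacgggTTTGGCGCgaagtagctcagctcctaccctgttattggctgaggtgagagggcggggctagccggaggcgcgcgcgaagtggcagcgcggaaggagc
Gins3: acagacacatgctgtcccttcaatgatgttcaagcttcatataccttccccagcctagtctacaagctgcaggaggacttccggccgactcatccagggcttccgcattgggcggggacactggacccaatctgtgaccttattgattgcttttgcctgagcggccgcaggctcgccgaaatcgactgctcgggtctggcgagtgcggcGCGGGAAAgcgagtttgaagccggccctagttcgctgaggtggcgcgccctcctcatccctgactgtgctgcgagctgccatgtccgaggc
Pole2: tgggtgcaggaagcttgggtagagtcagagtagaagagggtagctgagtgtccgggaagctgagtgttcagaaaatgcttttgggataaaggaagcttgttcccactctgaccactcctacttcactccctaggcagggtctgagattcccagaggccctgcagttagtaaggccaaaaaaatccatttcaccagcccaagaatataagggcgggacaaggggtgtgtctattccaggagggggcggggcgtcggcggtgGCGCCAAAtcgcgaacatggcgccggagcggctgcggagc
Uhrf1: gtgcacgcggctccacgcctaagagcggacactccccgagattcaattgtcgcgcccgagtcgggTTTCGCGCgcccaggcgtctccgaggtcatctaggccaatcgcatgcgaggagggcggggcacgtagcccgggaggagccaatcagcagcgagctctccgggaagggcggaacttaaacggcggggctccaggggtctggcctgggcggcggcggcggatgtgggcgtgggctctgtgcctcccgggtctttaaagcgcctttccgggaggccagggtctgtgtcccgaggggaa
Cdt1: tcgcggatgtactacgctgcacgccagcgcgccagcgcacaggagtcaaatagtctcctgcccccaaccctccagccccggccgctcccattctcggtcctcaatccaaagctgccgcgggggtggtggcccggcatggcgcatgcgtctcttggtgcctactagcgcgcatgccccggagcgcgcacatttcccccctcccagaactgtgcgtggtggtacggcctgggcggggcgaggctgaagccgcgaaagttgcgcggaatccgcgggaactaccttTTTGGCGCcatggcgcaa
Pcna: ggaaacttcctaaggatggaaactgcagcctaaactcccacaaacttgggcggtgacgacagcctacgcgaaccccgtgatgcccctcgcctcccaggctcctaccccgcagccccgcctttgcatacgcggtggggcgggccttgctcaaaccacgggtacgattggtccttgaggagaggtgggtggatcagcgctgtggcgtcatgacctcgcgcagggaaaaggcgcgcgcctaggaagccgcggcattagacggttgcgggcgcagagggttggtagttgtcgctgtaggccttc
Cdc45: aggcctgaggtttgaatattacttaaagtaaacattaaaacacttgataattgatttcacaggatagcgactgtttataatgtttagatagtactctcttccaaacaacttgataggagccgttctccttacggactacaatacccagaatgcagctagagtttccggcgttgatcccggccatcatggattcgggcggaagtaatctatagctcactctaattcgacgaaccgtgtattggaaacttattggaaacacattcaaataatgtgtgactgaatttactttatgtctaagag

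Within the set, the letters were found among genes that rose, that fell and that did not pass. They were present in 10 of 21 genes called higher, 1 of 2 called lower and 4 of 14 not called that had a window. The 15 genes with the letters had a median log2 change of 0.250 and the 22 without them one of 0.232. Other promoter letters were counted beside those of genes of mitosis. For these letters, all genes are those with a RefSeq window, tested here or not. CCAAT, which the factor NF-Y binds, was in 22 of 37 replication genes (59.5%) and 15 of 17 mitosis genes (88.2%), against 41.1% of all genes. TTTGAA, the core of the CHR element of late cell cycle genes, was in 5 of 37 (13.5%) and 12 of 17 (70.6%), against 20.2%, while the E2F letters were in 1 of those 17 (5.88%). GGGCGG, the GC box, was in 29 of 37 replication genes (78.4%) and 14 of 17 mitosis genes (82.4%), against 38.2% of all genes. None of the E2F spellings contains the CCAAT, CHR or GC box letters on either strand. These are matches of letters and do not show binding.

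The 5 genes of origin licensing did not all move together. Gmnn and Cdc6 rose (40.0%, against 24.5% of all genes tested), and Cdt1 fell (20.0%, near the 18.8% of all genes). Orc1 and Orc6 did not pass. Gmnn encodes geminin, which binds CDT1 and stops licensing once S phase has begun. It showed the largest log2(FPKM + 1) change of the 45 genes, though Tk1 led with a pseudocount of 0.1, at 0.71 against 0.68 (Gmnn lies on chromosome 13, 24751845 to 24761923, minus strand, here and below by GENCODE M21 on GRCm38). Nor was this lead kept in every fit that left out 1 library. Across those fits the lowest change was 0.598 for Gmnn, 0.607 for Dut and 0.616 for Pcna. The FPKM of Gmnn was 19.2, 19.1 and 20.0 in the WT libraries against 31.6, 28.4 and 33.9 in the KO libraries. Every KO library lay well above every WT library, and the log2 change was 0.66 (SE 0.064 and limma adjusted p = 0.000394). Cdt1, the loader that geminin inhibits (chromosome 8, 122568015 to 122573554, plus strand), went the other way, with 42.4, 39.2 and 41.5 FPKM in the WT libraries against 36.8, 35.2 and 36.1 FPKM in the KO libraries. The arms did not overlap, and the log2 change was -0.18 (SE 0.036 and limma adjusted p = 0.0085). Cdc6, the ATPase that works with CDT1, had 6.11 ± 0.144 and 7.46 ± 0.228 FPKM (SD, n = 3 each), for a log2 change of 0.25 with a limma adjusted p of 0.00395.

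The 2 subunits of the origin recognition complex in the set did not pass. Orc1, the subunit that marks the complex as ready to license, had 4.34, 4.91 and 4.74 FPKM in the WT libraries against 4.39, 4.50 and 4.13 FPKM in the KO libraries. Orc6 had 16.6, 17.0 and 16.1 FPKM in the WT libraries against 15.8, 18.5 and 18.6 FPKM in the KO libraries. In both genes the arms overlapped, and the 95% intervals of the log2 change were -0.225 to 0.056 for Orc1 and -0.081 to 0.24 for Orc6. Without KO replicate 1, the lowest of its arm, Orc6 had a log2 change of 0.153 with a limma adjusted p of 0.0275.

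All 6 genes of the MCM ring, the motor of the replicative helicase, rose by similar steps, where 24.5% of all genes tested were called higher. Their log2 changes were between 0.22 and 0.36 with a median of 0.263, or 1.17- to 1.29-fold in mean FPKM. The summed ring rose from 213, 216 and 212 FPKM in the WT libraries to 257, 260 and 258 FPKM in the KO libraries. In each of the 6 genes all KO libraries were above all WT libraries, while the arms did not overlap in 55.8% of all genes.

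Mcm6 showed the largest step of the ring, with 47.5, 50.4 and 49.2 FPKM in the WT libraries against 61.8, 62.7 and 65.0 FPKM in the KO libraries. Mcm4 had 33.6, 32.4 and 33.5 FPKM and 40.0, 40.9 and 39.7 FPKM in the same order. Mcm7 had 22.4, 22.4 and 20.8 FPKM and 27.7, 26.1 and 25.6 FPKM. Their log2 changes were 0.36, 0.27 and 0.27 (SE 0.032, 0.027 and 0.044), with limma adjusted p of 0.00027, 0.000432 and 0.00408. Mcm7 hosts the microRNAs Mir25 and Mir93 in its transcribed region, and overlaps Ap4m1 and Cops6 on the other strand.

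Mcm2 had 16.5, 17.1 and 16.1 FPKM in the WT libraries against 19.9, 19.7 and 20.5 FPKM in the KO libraries. For Mcm5 the values were 42.2, 43.1 and 41.4 FPKM and 48.8, 50.5 and 49.0 FPKM. Mcm3 was the steadiest of the ring within the WT arm, at 50.5, 50.8 and 51.3 FPKM, and rose to 58.8, 60.4 and 58.4 FPKM. Their log2 changes were 0.26, 0.22 and 0.22 (SE 0.035, 0.026 and 0.023), with limma adjusted p of 0.00152, 0.000972 and 0.000567.

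The ring proteins assemble in equal number, but their transcripts were not equal. With WT neutrophils the mean level rose in the order Mcm2, Mcm7, Mcm4, Mcm5, Mcm6 and Mcm3, from 16.56 to 50.83 FPKM, a range of 3.07-fold on a scale per length. No neighbours in that order overlapped in the WT libraries. With KO neutrophils the range was 3.15-fold, again without an overlap between neighbours, but Mcm6 and Mcm3 changed places, with every Mcm6 value above every Mcm3 value. Mcm10, which is not part of the ring and helps to activate it, did not share the rise. It had 8.22, 7.83 and 8.18 FPKM in the WT libraries against 7.62, 7.53 and 6.88 FPKM in the KO libraries. The arms did not overlap, but the log2 change of -0.12 (95% interval -0.241 to -0.003) did not pass, at a limma adjusted p of 0.0913, except on the TPM scale.

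**Figure D3:**
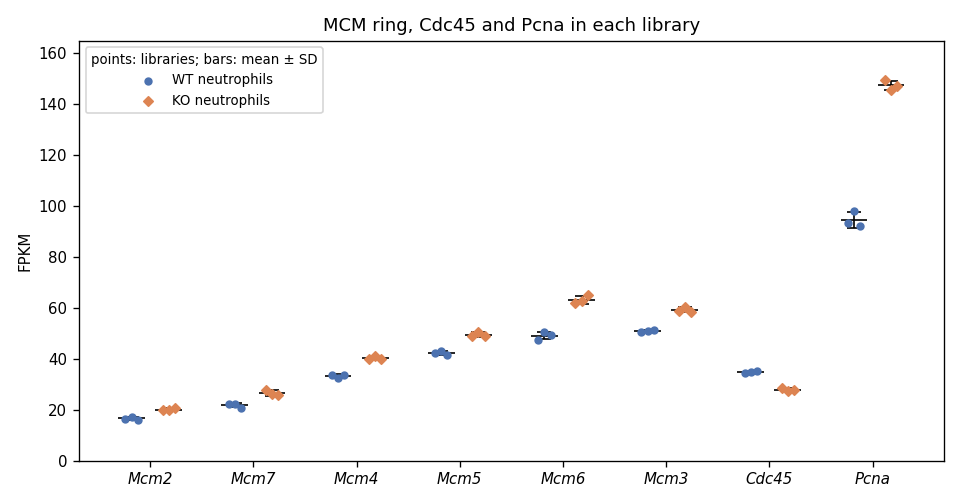
FPKM of the 6 ring genes in order of their level with WT neutrophils, of Cdc45 and of Pcna. Blue circles are the 3 WT and orange diamonds the 3 KO libraries, and bars give the mean ± SD. All ring genes and Pcna are higher with KO neutrophils in every library, from 1.17-fold in Mcm3 to 1.56-fold in Pcna, and Cdc45 is lower.

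The partners that join the ring to form the active helicase, the CMG complex, moved apart. Of the 4 GINS genes 3 rose (75.0%, against 24.5% of all genes tested). Cdc45 (chromosome 16, 18780447 to 18811987, minus strand) fell, 1 of the 5 partners (20.0%), near the 18.8% of all genes. It had 34.2, 34.6 and 35.1 FPKM in the WT libraries against 28.7, 27.2 and 27.8 FPKM in the KO libraries. The 2 sets of values were far apart, and the log2 change was -0.30 (SE 0.029 and limma adjusted p = 0.00035), the largest fall in the set. Its exons overlap those of Ufd1 on the other strand. Gins3 had 7.87, 7.30 and 7.08 FPKM in the WT libraries against 10.4, 11.1 and 11.5 FPKM in the KO libraries, a log2 change of 0.51 (SE 0.054 and limma adjusted p = 0.000578). Gins1 rose from 14.8 ± 0.353 to 18.7 ± 0.356 FPKM and Gins4 from 19.2 ± 1.59 to 22.8 ± 0.645 FPKM (SD, n = 3 each). The call of Gins4 rested on a limma adjusted p of 0.0191 and was lost without WT replicate 1, WT replicate 3 or KO replicate 2, at 0.0554 to 0.0617. Gins2 had 6.82, 7.46 and 7.0 FPKM in the WT libraries against 9.49, 8.76 and 7.23 FPKM in the KO libraries. KO replicate 3 lay among the WT values, and the limma adjusted p was 0.0997, and 0.0117 without that library. Exons of Gins2 overlap those of Gse1 on the other strand over 2758 bases.

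Among the 9 genes of polymerases and primase, 3 were higher and 1 was lower. This made 44.4% called, near the 43.3% of all genes tested, with a median log2 change of 0.021. The 2 subunits in the set of polymerase epsilon, which copies the leading strand, moved in opposite directions. Pole2, its second subunit, had 5.91, 5.39 and 4.97 FPKM in the WT libraries against 8.82, 8.04 and 8.37 FPKM in the KO libraries. The arms were well apart, with a log2 change of 0.55 (SE 0.066 and limma adjusted p = 0.000951). Pole, the catalytic subunit, had 8.47, 7.76 and 8.03 FPKM in the WT libraries against 6.72, 7.30 and 7.22 FPKM in the KO libraries. Its arms did not overlap, but the log2 change of -0.17 was close to the threshold (SE 0.05 and limma adjusted p = 0.0355), and leaving out any library but WT replicate 2 lost the call, at 0.0553 to 0.103. Its other subunits, Pole3 and Pole4, are companion genes and are named here after their values were seen. Pole3 rose by 0.31 (limma adjusted p = 0.0108), and Pole4, at 0.05, did not pass (0.66). Pole2 shares its strand with an overlapping predicted gene, Gm49384, and Pole overlaps Gm15792 on the other strand.

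Polymerase alpha and its primase, which lay down the starting primers, showed 1 rise in 4 genes (25.0%), near the 24.5% of all genes. Pola1, the catalytic subunit, rose from 9.74 ± 0.445 to 12.6 ± 0.176 FPKM (SD, n = 3 each), for a log2 change of 0.34 with a limma adjusted p of 0.00107. Pola2, its accessory subunit, had 5.74, 5.65 and 5.76 FPKM in the WT libraries against 6.14, 5.78 and 5.53 FPKM in the KO libraries. The primase genes lay slightly lower in mean without passing. Prim1, the catalytic subunit, had 11, 11.7 and 11.8 FPKM in the WT libraries against 10.6, 10.7 and 11.6 FPKM in the KO libraries. Prim2 had 8.47, 8.19 and 8.26 FPKM in the WT libraries against 8.25, 8.05 and 7.72 FPKM in the KO libraries. In these 3 genes the arms overlapped, and the 95% intervals of the log2 change were -0.095 to 0.137 for Pola2, -0.185 to 0.059 for Prim1 and -0.144 to 0.049 for Prim2.

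For polymerase delta, which copies the lagging strand, 1 of 3 genes passed, where 43.3% of all genes did. Pold3, an accessory subunit, rose from 6.93 ± 0.119 to 9.01 ± 1.16 FPKM (SD, n = 3 each), for a log2 change of 0.33. Its limma adjusted p was 0.0237, and the call was lost on leaving out any library but KO replicate 1, at 0.0568 to 0.072. The catalytic subunit Pold1 had 10.3 ± 1.10 and 11 ± 0.167 FPKM, with a limma adjusted p of 0.364, which was 0.0282 without WT replicate 2. Pold2 had 33.2, 40.1 and 37.3 FPKM in the WT libraries against 34.1, 37.0 and 34.6 FPKM in the KO libraries, with overlapping arms and a limma adjusted p of 0.53. The other subunit, Pold4, is a companion gene and is named here after its values were seen. Its log2 change of -0.23 did not pass (limma adjusted p = 0.0615), but it was called lower on the TPM scale (0.0378).

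Pcna, the sliding clamp that tethers polymerases to DNA (chromosome 2, 132249162 to 132253314, minus strand), was the most abundant gene of the set and showed the smallest p. Its FPKM was 93.5, 98.2 and 92.0 in the WT libraries against 149, 146 and 147 in the KO libraries. The arms were far apart, with a log2 change of 0.64 (95% interval 0.565 to 0.705, SE 0.029, limma adjusted p = 1.4e-05). The 5 genes of replication factor C, the loader that opens the clamp, did not follow as a unit. Rfc2 rose from 8.0 ± 0.443 to 11 ± 0.371 FPKM and Rfc1, the large subunit, from 17.2 ± 0.619 to 20.3 ± 0.545 FPKM (SD, n = 3 each). Their log2 changes were 0.42 and 0.23, with limma adjusted p of 0.000989 and 0.00383. Exons of Rfc2 overlap those of Lat2 on the other strand over 952 bases.

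The other loader subunits did not pass. Rfc5 had 12.6, 13.3 and 12.7 FPKM in the WT libraries against 12.9, 12.9 and 12.6 FPKM in the KO libraries, the smallest log2(FPKM + 1) change in the set on the deposited scale, with a 95% interval of the log2 change of -0.087 to 0.078. For Rfc4 the values were 29.1, 33.5 and 32.8 FPKM and 29.7, 27.6 and 32.2 FPKM. Rfc3 had 6.54, 6.33 and 5.66 FPKM and 6.04, 6.39 and 5.59 FPKM. The arms of all 3 overlapped, and their limma adjusted p were 0.927, 0.373 and 0.714.

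Neither gene of flap removal and ligation, the steps that finish Okazaki fragments, passed. Fen1, the flap nuclease, had 20.0, 19.0 and 8.97 FPKM in the WT libraries against 29.5, 26.0 and 11.4 FPKM in the KO libraries. Replicate 3 was the lowest library of each arm, and within each replicate number the KO value was the higher. The log2 change of 0.43 had an SE of 0.427 and a limma adjusted p of 0.459. It was 0.079 without WT replicate 3 and 0.83 without KO replicate 3, and lay between these without any other library, never passing. With the replicate number as a block that p was 0.00722, but the numbers did not pair the libraries over all genes, so this is not counted as a call. Fen1 overlaps Gm10143 and Tmem258 on the other strand. Lig1, the ligase that seals the nicks, was level, with 22.8, 23.4 and 22.3 FPKM in the WT libraries against 22.9, 23.7 and 23.0 FPKM in the KO libraries. The 95% interval of its log2 change was -0.055 to 0.097.

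Of replication protein A, the trimer that coats unwound single strands, the middle and small subunits rose (66.7%, against 24.5% of all genes tested). Rpa3 had 11.5, 10.5 and 11.4 FPKM in the WT libraries against 15.0, 14.5 and 16.5 FPKM in the KO libraries. Every KO value lay above every WT value, with a log2 change of 0.43 (SE 0.059 and limma adjusted p = 0.00173). Rpa2 went from 12.1 ± 0.622 to 15.8 ± 0.526 FPKM (SD, n = 3 each), for a log2 change of 0.36 with a limma adjusted p of 0.00148. Rpa1, the large subunit, had 13.3, 22.1 and 22.5 FPKM in the WT libraries against 21.1, 19.5 and 18.6 FPKM in the KO libraries. WT replicate 1 stood apart from the rest. The log2 change was 0.07 with all libraries and -0.169 without that one, and passed in neither fit (limma adjusted p = 0.804 and 0.0738). It shares its strand with the overlapping Gm47300.

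Nucleotide supply rose in 4 of 5 genes (80%, against 24.5% of all genes). Dut, the enzyme that removes dUTP so that uracil is kept out of DNA (chromosome 2, 125247190 to 125258608, plus strand), showed the largest log2(FPKM + 1) change of the group, though Tk1 led with a pseudocount of 0.1, at 0.71 against 0.67. Tk1 also led narrowly in the fit without WT replicate 1. Dut had 17.8, 17.9 and 16.4 FPKM in the WT libraries against 28.4, 26.8 and 28 FPKM in the KO libraries. There was a wide gap between the arms, with a log2 change of 0.65 (SE 0.044 and limma adjusted p = 8.43e-05). Tk1, the thymidine kinase of S phase, rose from 3.55 ± 0.521 to 5.82 ± 0.225 FPKM (SD, n = 3 each), for a log2 change of 0.59 with a limma adjusted p of 0.00261. Rrm1 and Rrm2, the subunits of ribonucleotide reductase that makes the deoxynucleotides, rose together. They went from 19.0 ± 0.0157 to 23.9 ± 0.468 FPKM and from 25.8 ± 0.624 to 31.0 ± 0.720 FPKM (SD, n = 3 each), with log2 changes of 0.31 and 0.26 and limma adjusted p of 0.000256 and 0.00105. Tyms, the thymidylate synthase that acts in the same pathway as Dut, had 5.97, 4.73 and 4.08 FPKM in the WT libraries against 4.15, 5.97 and 5.13 FPKM in the KO libraries. The arms overlapped fully, and the 95% interval of -0.327 to 0.405 was the widest in the set after those of Fen1 and Rpa1.

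The remaining 3 genes all rose, where 24.5% of all genes tested did. Uhrf1, which reads hemimethylated DNA behind the fork and guides its remethylation, had 29.2, 27.2 and 29.4 FPKM in the WT libraries against 41.0, 41.9 and 42.0 FPKM in the KO libraries. Its arms were well separated, with a log2 change of 0.53 (SE 0.036 and limma adjusted p = 8.02e-05). Ung, the glycosylase that removes uracil from DNA, went from 2.26 ± 0.253 to 2.94 ± 0.0165 FPKM (SD, n = 3 each), with a limma adjusted p of 0.0202. E2f1, an activating E2F factor, had 13.5, 12.0 and 11.6 FPKM in the WT libraries against 14.1, 15.2 and 14.8 FPKM in the KO libraries. The gap between the arms of E2f1 was narrow, with a log2 change of 0.24 (SE 0.061 and limma adjusted p = 0.0232). The calls of Ung and E2f1 were lost in 5 and 4 of the 6 fits that left out a library, Ung in all but the fit without WT replicate 2 and E2f1 in all but those without WT replicate 1 and KO replicate 1.

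Because some partners moved in opposite directions, their ratio was taken within each library, where the scaling of the library cancels. These 4 ratios were chosen after the values had been seen, so they are given without a test. Cdt1 over Gmnn was 2.20, 2.05 and 2.08 with WT and 1.17, 1.24 and 1.07 with KO neutrophils. Cdc45 over the mean of the 6 ring genes was 0.965, 0.960 and 0.991 with WT and 0.669, 0.628 and 0.645 with KO neutrophils. In both, every KO library had the lower ratio. Pole2 over Pole was 0.697, 0.695 and 0.619 with WT and 1.31, 1.10 and 1.16 with KO neutrophils, so that the order of these subunits turned. Pcna over the mean of the ring was 2.64, 2.72 and 2.60 with WT and 3.49, 3.36 and 3.42 with KO neutrophils, so the clamp rose by more than the ring in every library.

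**Figure D4:**
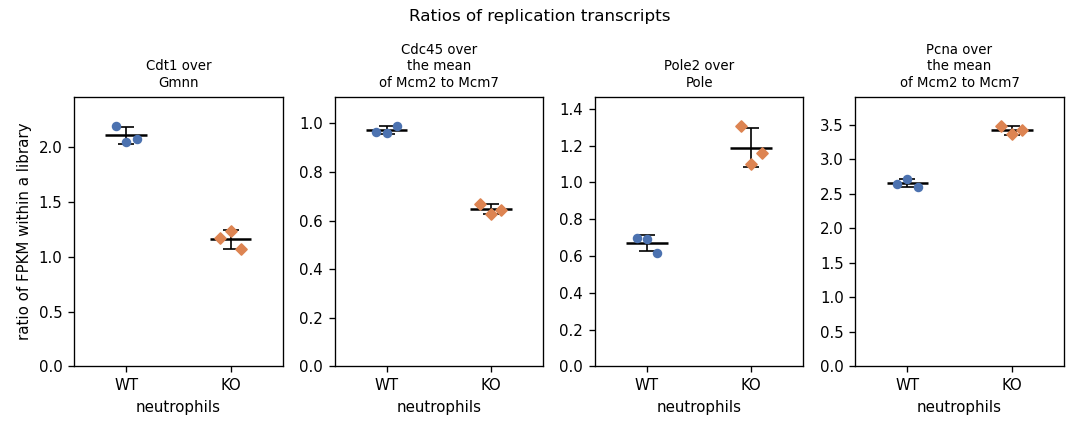
Ratio of FPKM within a library for 4 pairs, with blue circles for the 3 WT and orange diamonds for the 3 KO libraries and bars for the mean ± SD. Each axis starts at 0 and has its own range. Cdt1 over Gmnn goes from a mean of 2.11 to 1.16, Cdc45 over the ring from 0.972 to 0.647, Pole2 over Pole from 0.670 to 1.19 and Pcna over the ring from 2.65 to 3.42.

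Next, 91 other genes of replication and its control were read from the same fit. Of the 89 tested, 41 (46.1%) were higher, against 24.5% of all genes tested, and 14 (15.7%) were lower, near the 18.8% of all genes. Their median log2 change was 0.114. On the TPM scale, where 45.1% of calls over all genes were higher, 35 were higher and 20 lower, and no companion gene named below lost its call there. E2f7 was listed at 0 in every library and Cdkn1c was under the level for testing.

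Of the 15 genes that work beside the fork, 9 (60.0%) were higher and none lower by limma at an adjusted p under 0.05, against 24.5% and 18.8% of all genes tested. With TPM scaling 7 were higher and 1 lower, beside 19.1% and 23.3% of all genes. Top1, which relieves the twist ahead of the fork, rose by 0.23 on the log2 scale (limma adjusted p = 0.00154). Dscc1, part of an alternative clamp loader, and Tipin, of the fork protection complex, rose by 0.52 and 0.27. Among 9 genes that copy chromatin, 6 (66.7%) were higher and none lower by the same test, and 5 were higher on the TPM scale, beside 19.1% of all genes. Dnmt1, the methyltransferase that UHRF1 recruits, went from 27.5 ± 0.595 to 36.7 ± 0.933 FPKM (SD, n = 3 each), for a log2 change of 0.41 with a limma adjusted p of 0.000132. The chromatin remodeller Hells and the histone mRNA binding protein Slbp rose by 0.25 and 0.37. Of 12 further nucleotide enzymes, 5 (41.7%) were higher, against 24.5% of all genes, with Samhd1, which breaks down deoxynucleotides, Cad, of pyrimidine synthesis, and Nme1, a nucleoside diphosphate kinase, at log2 changes of 0.31, 0.21 and 0.24. The 2 lower ones (16.7%, near the 18.8% of all genes) were Rrm2b, the reductase subunit used outside S phase, at -0.23, and Ctps, which makes CTP, at -0.14.

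Of 15 genes of origins and firing, 4 (26.7%) were higher and 3 (20.0%) lower, shares near the 24.5% and 18.8% of all genes tested, and their median log2 change was -0.044. On the TPM scale 3 (20.0%) were higher and 5 (33.3%) lower, against 19.1% and 23.3% of all genes. Wdhd1, which links the helicase to polymerase alpha, and Topbp1, which helps to fire origins, rose by 0.44 and 0.26. Orc2 and Orc3, subunits of the origin recognition complex, fell by 0.19 and 0.17 on the log2 scale. Mcm9, a relative of the ring genes that acts in repair, fell from 4.72 ± 0.369 to 2.72 ± 0.534 FPKM (SD, n = 3 each), for a log2 change of -0.63 with a limma adjusted p of 0.00537. Its exons overlap those of Asf1a on the other strand over 1748 bases. Asf1a, a companion gene named for this overlap, rose by 0.32 (limma adjusted p = 0.00358). Other companion genes also have exon overlaps, which are not listed here.

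In the group of E2F, RB, cyclin and related genes, 15 of 24 tested genes (62.5%) were higher and 3 (12.5%) lower, against 24.5% and 18.8% of all genes, with a median log2 change of 0.254. With TPM scaling 13 were higher and 4 lower, beside 19.1% and 23.3% of all genes. Ccnd2, a D-type cyclin, rose from 20.9 ± 0.172 to 32.0 ± 0.574 FPKM (SD, n = 3 each), for a log2 change of 0.59 with a limma adjusted p of 1.25e-05. Rbl1, which encodes the RB relative p107 and is itself a repressor of E2F targets, rose by 0.47. Against them, Cdk6, a kinase partner of D-type cyclins, fell from 11.7 ± 0.0988 to 6.84 ± 0.317 FPKM (SD, n = 3 each), for a log2 change of -0.70 with a limma adjusted p of 4.82e-05. E2f5, a repressing E2F, fell by 0.43. Myc, a driver of growth and entry into the cell cycle, fell the most of the 89 genes, from 3.03 ± 0.804 to 0.720 ± 0.124 FPKM (SD, n = 3 each), for a log2 change of -1.21 with a limma adjusted p of 0.00106. Of 6 tested CDK inhibitors 50% passed, near the 43.3% of all genes. Cdkn2c, an inhibitor of CDK4 and CDK6, rose by 0.80 while Cdkn2b, of the same family, and Cdkn1a fell by 0.82 and 0.42 on the log2 scale. Cdkn1a encodes p21, which binds PCNA and blocks cyclin-dependent kinases.

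The replication checkpoint, which slows the cell cycle when forks stall, had the lowest median of the 7 companion groups. Of 8 genes, 4 (50%) were lower and 1 (12.5%) was higher, against 18.8% and 24.5% of all genes tested, with a median log2 change of -0.221. With TPM scaling 6 were lower and 1 was higher, where 23.3% of all genes were lower and 19.1% higher. The sensor kinase Atr fell by 0.29 (limma adjusted p = 0.00244), and Rad1 and Rad9a, subunits of the checkpoint clamp, and Rad17, its loader, fell by 0.46, 0.33 and 0.29 on the log2 scale. Wee1, a kinase that restrains CDK1 and CDK2, rose by 0.41.

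**Figure D5:**
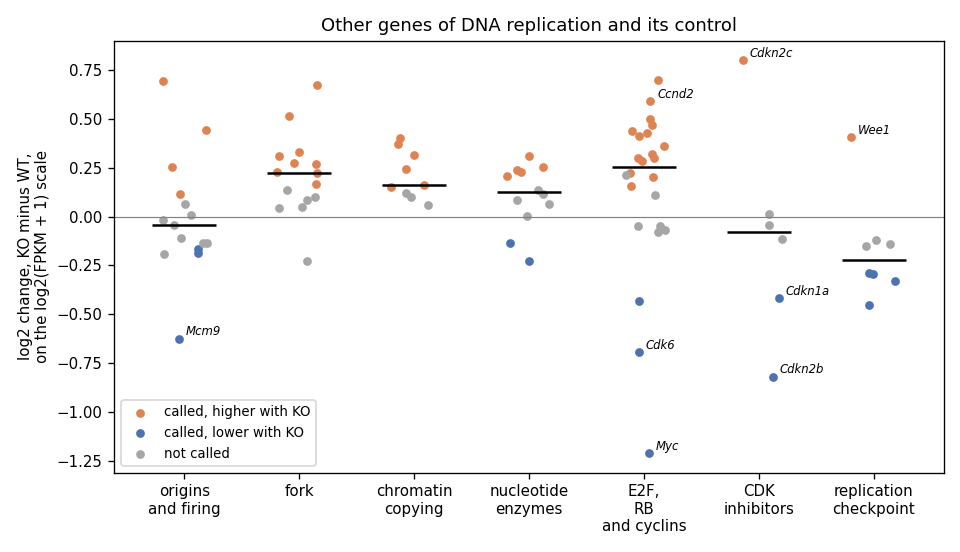
Log2 change, KO minus WT neutrophils, on the log2(FPKM + 1) scale, for the 89 tested companion genes in 7 groups, each point 1 gene and each bar the median of a group. Orange points were called higher, blue points lower and grey points were not called. Medians run from -0.221 in the replication checkpoint to 0.254 in the group of E2F, RB and cyclins, and Myc is the lowest point at -1.21.

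Most genes of the later cell cycle were higher as well. Of 20 genes of G2 and mitosis, 15 (75.0%) were higher and 1 (5.0%) was lower, against 24.5% and 18.8% of all genes tested, and their median log2 change was 0.254. Mki67, the gene of the proliferation antigen Ki-67, went from 49.8 ± 0.908 to 64.9 ± 1.23 FPKM (SD, n = 3 each), for a log2 change of 0.38 with a limma adjusted p of 8.12e-05. Kif20a, a kinesin of cytokinesis, and Ccnb2, a mitotic cyclin, rose by 0.63 and 0.55. Bub1, a spindle checkpoint kinase, fell from 51.6 ± 0.566 to 43.2 ± 1.71 FPKM (SD, n = 3 each), for a log2 change of -0.25 with a limma adjusted p of 0.00147. Whether the replication genes differ from the mitosis genes in their change was not tested.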

How the data were processed

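RNA-seq was read from 6 microglia libraries, 3 per arm, grouped by title. FPKM for 55335 mouse gene identifiers were deposited by the authors in 1 table with a column for each library, and 0 value columns were left unused. FPKM are scaled to mapped fragments and transcript length, and no depth was given with them. The submitters' processing notes list fastp 0.17.1, HISAT2 2.1.0, DESeq2 1.18.1 and R 3.4.3. The genome build and gene annotation are not given in the sources used here, and the library kit and sequencer differ between the labels and the study's methods. Symbols and overlaps came from GENCODE M21 (GRCm38), which held 55154 of the identifiers (99.67%).

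Depth was sought in the steps between low values. Only 26.0% to 30.5% of them came out whole within 0.05 of a fragment, against 10.0% by chance, so counts could not be recovered and no count test was run, although the study ran DESeq2 on counts. Instead, limma 3.58.1 in R 4.3.3 (lmFit, eBayes with a mean-variance trend) compared KO with WT on log2(FPKM + 1), which understates changes of low genes. A mean of 1 FPKM or more was required, which 11395 genes reached. P-values were adjusted by Benjamini-Hochberg over all of these, and an adjusted p under 0.05 was a call. The code was tested on simulated data. Fold changes in FPKM are ratios of means.

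The members and lists were chosen with earlier results of these data known. Every member could be named. FPKM in each library was given for the largest and smallest change of each role group, the MCM ring, Pcna and members against the majority direction. Of the other lists, up to 3 genes with the smallest p and those called in the other direction were named. Alternatives were a pseudocount of 0.1, no filter, a mean of at least 5 FPKM, 4 other scalings, no variance trend, a replicate block and leaving out each library.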

Additional observations from a re-analysis of the deposited data

How the results depend on the processing

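Of the 29 called members, 24 were called in every one of the 15 alternative fits in which they were tested, 22 of them higher, and no called member changed direction. Gins4, Pold3, Pole, Ung and E2f1 lost the call in some. Without 1 library at a time, 24 to 28 members were called, 22 to 26 higher and 2 to 3 lower, with a median log2 change of 0.221 to 0.252. In these fits 47 to 50 companion genes were called (34 to 39 higher, 11 to 13 lower), 15 to 17 mitosis genes (14 to 16 higher, 1 lower), and 4081 to 4229 of all genes, 55.2% to 57.2% of them higher. No member passed the threshold of the study in any of them (0 to 0). Each of these fits left 2 libraries in the arm concerned. The companion genes called lower went from 14 to 8 when a mean of at least 5 FPKM was asked, a fit that tests fewer genes. On the TPM scale 45.1% of calls over all genes were higher, against 56.6%, and the median of all genes moved from 0.024 to -0.02. The fits without 1 library gave log2 changes of -0.013 to 0.052 for Pola2, -0.131 to 0.001 for Pold2, -0.087 to 0.009 for Rfc3, -0.019 to 0.016 for Rfc5, -0.169 to 0.191 for Rpa1 and -0.066 to 0.162 for Tyms. The direction turned only in members that were not called. On the TPM scale these were Pola2 (-0.021), Lig1 (-0.027) and Tyms (-0.002). Among the fits without 1 library, it turned in Rfc3 (0.003) and Rpa1 (-0.169) without WT replicate 1, Pold2 (0.001) and Rfc5 (0.016) without WT replicate 2, Tyms (-0.066) without WT replicate 3, Pola2 (-0.013) without KO replicate 1, Tyms (-0.065) without KO replicate 2, and Rfc3 (0.009) and Rfc5 (0.005) without KO replicate 3. The cause was not tested. With a replicate block, 4212 genes were called and 26 members were higher and 2 lower, with Pole (limma adjusted p = 0.0945) and E2f1 (0.0605) lost and Fen1 (0.00722) gained. The deviations of same-numbered libraries correlated at -0.075, -0.052 and -0.005, so the labels' numbers do not pair them. The table gives no depth, so counting error is unknown, and 3 libraries per arm limit the precision. The next settings were chosen after seeing the data. Without Fen1 and Rpa1 the median log2 change of the members was 0.239, and without members that overlap other genes 0.256.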
